A study of Mus musculus with 6 samples.

Results

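The cathepsins are proteases, most of which work inside the lysosome. The 10 genes described here are Ctsa, Ctsb, Ctsc, Ctsd, Ctsf, Ctsh, Ctsk, Ctsl, Ctss and Ctsz, taken as the probe sets that the platform's annotation assigns to 1 of these genes alone. All 10 were measured, each by 1 probe set, among 19938 genes tested. They were followed in MC3T3-E1, an established line of osteoblast precursors that the labels trace to the calvaria of newborn C57BL/6 mice, on 6 one-colour Affymetrix whole-transcript arrays, 1 per RNA sample. The undifferentiated group (3 arrays) carried the label of no treatment and grew in α-MEM free of ascorbic acid, in 10% serum. The differentiated group (3 arrays) had reached confluence and then spent 14 days in osteoblast induction medium. That medium was DMEM and 10% serum, to which 0.1 µM dexamethasone, 10 mM β-glycerophosphate, sodium pyruvate (1 mM) and ascorbic acid-2-phosphate (0.2 mM) had been added. The base medium, the time at confluence and each added compound therefore differed together and cannot be told apart. Both groups come from a single line, and the labels call the replicates independent but not in what way, so p-values measure only the spread between these samples.

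Cathepsins are made as inactive precursors, carried to the lysosome largely by the mannose 6-phosphate system, and activated there by acid and by other proteases. Most are cysteine proteases of the papain family, whereas cathepsin D is an aspartic protease and cathepsin A a serine carboxypeptidase. In bone the best known member is cathepsin K, which osteoclasts secrete to dissolve the collagen of the matrix. Cystatins and related small proteins hold the cysteine cathepsins in check. MiT/TFE transcription factors are known to bind an E-box-like element near the start of many lysosomal genes.

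For the sequence around their start sites, 8 of the 10 genes were matched by symbol in the RefSeq promoter table (GRCm38.p6), and Ctsb and Ctsh were not. The table gives 300 bases per start site, 250 before it and 50 after it, and the 8 genes had 9 such windows because Ctsa had 2. The E-box core CACGTG, which reads the same on both strands, was found in windows of 4 genes (Ctsa, Ctsd, Ctsf and Ctsl), or 4 of 9 windows, and in 7.15% of all 32851 windows. The longer TCACGTG, searched on both strands and always overlapping a CACGTG, was found in windows of Ctsa and Ctsd, or 2 of 9 windows, and in 3.77% of all windows. The 125 bases before the start site are shown for Ctsd and Ctsa, which hold TCACGTG, and for Ctsk, the member with the largest change in expression, whose 300 bases hold neither motif. Capitals mark TCACGTG together with its overlapping copy on the other strand.
Ctsd, chr7:142387828-142387952, minus strand: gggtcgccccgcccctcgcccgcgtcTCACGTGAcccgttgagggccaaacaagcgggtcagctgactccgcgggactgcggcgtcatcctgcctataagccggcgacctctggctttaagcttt
Ctsa, chr2:164833648-164833772, plus strand: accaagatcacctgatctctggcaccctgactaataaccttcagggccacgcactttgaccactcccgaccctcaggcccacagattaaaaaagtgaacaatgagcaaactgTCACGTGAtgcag
Ctsk, chr3:95499085-95499209, plus strand: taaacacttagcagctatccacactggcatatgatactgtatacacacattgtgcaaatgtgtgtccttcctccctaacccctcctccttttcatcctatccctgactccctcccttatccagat
In Ctsd the core shown begins at position -98 from the start site, and a further core lies at -245. In Ctsa the core shown begins at -12, and a further copy begins at position 6 after the start. The single cores of Ctsf and Ctsl begin at -79 and -236. A match gives the letters only and does not show that a factor binds there. Set beside the changes in expression given below, Ctsa, Ctsd and Ctsl hold CACGTG and rose, while Ctsf holds it and did not pass the test. Without it, Ctsk, Ctsz and Ctss rose and Ctsc did not pass. Ctsa and Ctsd, which hold TCACGTG, rose. Ctsb and Ctsh, which were called higher, had no window. Whether the motifs bear on the changes was not tested.

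The deposited values are log2 expression with each probe set centred on its median over the 6 arrays, so a gene's values can be compared between arrays, but its level, and whether it was expressed, cannot be read, and members cannot be ranked by abundance. Where the groups are separate, this centring also sets the innermost array of each group at equal distances from 0. The groups were separated by the first principal component of the genes (89.8% of the variance), on which undifferentiated replicate 3, at -29.2, stood nearest to the differentiated arrays, with the other undifferentiated arrays at -36.3 and -35.4. That replicate was the highest of its group for 7 of the 10 cathepsins, while undifferentiated replicate 2 was the lowest for 7. The number of cathepsins called, given next, was 8 with and without replicate 3. In these bulk samples, fewer cells expressing a gene and less RNA per cell cannot be told apart.

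The comparison addressed how expression in uninduced cells differs from that in induced cells. Of the 10 cathepsins, 8 were higher in differentiated cells, 0 were lower and 2 did not pass the threshold, an adjusted p under 0.05 in limma's moderated test with Benjamini-Hochberg adjustment over all genes. Among all genes tested, 16.4% were called higher by the same rule and 19.1% lower. At an unadjusted p under 0.05 in limma, 0 cathepsins were lower, against 4339 of all 19938 genes. The rise was at least 2-fold in 5 members (Ctsk, Ctsd, Ctsb, Ctsa and Ctsz), against 2.53% of all genes. All 3 differentiated arrays lay above all 3 undifferentiated arrays for the same 8 members that were called, a pattern seen in 23.2% of all genes. The median log2 fold change of the 10 members was 0.94, and that of all genes 0.02.

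**Figure D1:**
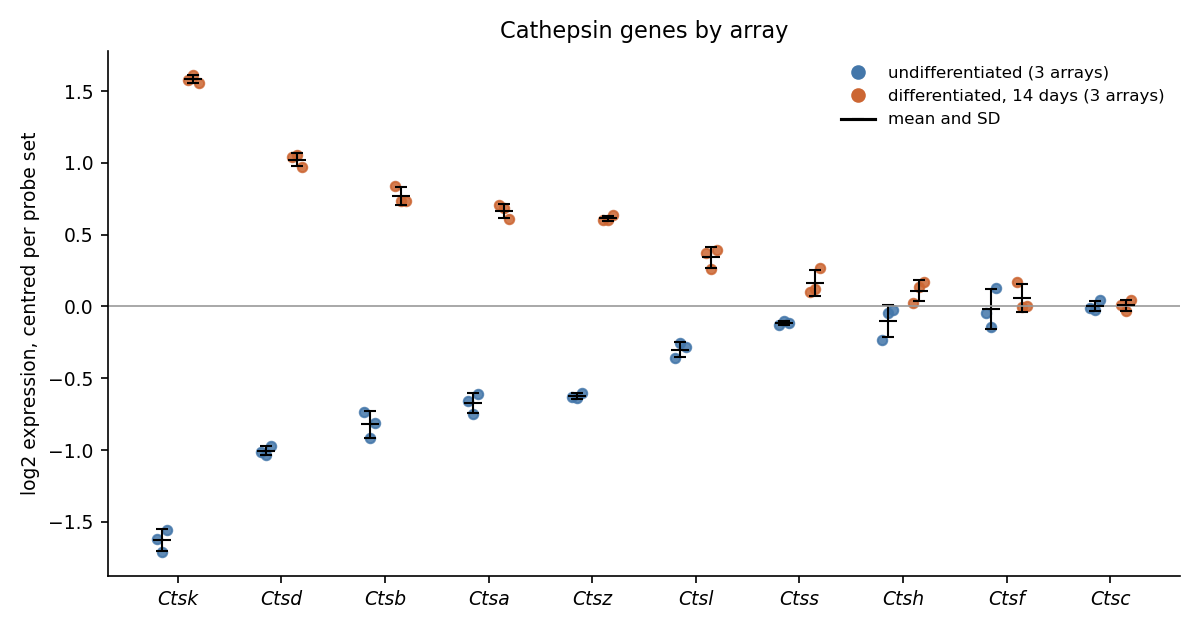
Each point is 1 array's log2 expression, centred per probe set (vertical axis), for the 10 cathepsin genes in order of their change, with black bars for the mean and SD of 3 arrays per group. The groups do not overlap in the first 8 genes, from Ctsk (group means -1.63 and 1.58) to Ctsh (-0.10 and 0.11), and overlap in Ctsf and Ctsc.

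Cathepsin K showed the largest change of the family. Ctsk (probe set 10494262) had centred log2 values of -1.62, -1.71 and -1.56 in undifferentiated replicates 1 to 3 and of 1.58, 1.61 and 1.56 in differentiated replicates 1 to 3. The replicates of each group lay close together and the gap between groups was far wider than either spread. The log2 fold change was 3.21 ± 0.06 (SE, 3 arrays per group, limma adjusted p = 4.44e-09), or 9.26-fold higher, which ranked 20th from the top of the 19938 genes. Its change stayed between 3.17 and 3.25 when any 1 array was left out. After quantile scaling it was 2.98, below the 95% interval of 3.08 to 3.34 from the main fit.

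The genes whose values lay closest to those of Ctsk over the 6 arrays, by Euclidean distance on the centred log2 values, were C1s1 (0.132), Errfi1 (0.218), Ctla2a (0.256), Aspn (0.274) and Adh1 (0.288), against a median distance of 3.91 over all other genes. C1s1 encodes a complement protease, Errfi1 a feedback inhibitor of the EGF receptor, Aspn the small proteoglycan asporin and Adh1 an alcohol dehydrogenase. Ctla2a encodes an inhibitor that resembles the propeptide of cysteine cathepsins. With 6 arrays in 2 well separated groups, this likeness is largely one in fold change.

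Ctss, the gene next to Ctsk on chromosome 3 in the RefSeq gene order, was 1.21-fold higher. Cathepsin S is best known for trimming the invariant chain of MHC class II in antigen-presenting cells. Ctss (probe set 10494271) was at -0.13, -0.10 and -0.11 in undifferentiated replicates 1 to 3 and at 0.10, 0.12 and 0.27 in differentiated replicates 1 to 3. The groups did not overlap, and differentiated replicate 3 stood above the other arrays of its group. Its rise was a log2 fold change of 0.28 ± 0.06 (limma adjusted p = 0.00542).

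The aspartic protease cathepsin D, a major general protease of the lysosome, had the second largest rise. Ctsd (probe set 10569319) was at -1.01, -1.03 and -0.97 in undifferentiated replicates 1 to 3 and at 1.04, 1.06 and 0.97 in differentiated replicates 1 to 3. The spread within each group was small beside the gap between them. Differentiated cells were 4.08-fold higher, a log2 fold change of 2.03 ± 0.05 (limma adjusted p = 2.82e-08).

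Cathepsin B, a cysteine protease that also trims the carboxyl end of peptides, followed. Ctsb (probe set 10415844) was at -0.73, -0.92 and -0.81 in undifferentiated replicates 1 to 3 and at 0.84, 0.74 and 0.73 in differentiated replicates 1 to 3. Undifferentiated replicate 2 was the lowest array, and no value of one group reached the other. This gave a log2 fold change of 1.59 ± 0.07 (limma adjusted p = 2.39e-07), or 3.01-fold.

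Both dedicated carboxypeptidases of the family rose more than 2-fold. Cathepsin A, also called protective protein because it holds the sialidase Neu1 and the β-galactosidase Glb1 in a stable complex, was measured by probe set 10478594. Ctsa was at -0.66, -0.75 and -0.61 in undifferentiated replicates 1 to 3 and at 0.70, 0.69 and 0.61 in differentiated replicates 1 to 3. Its log2 fold change was 1.34 ± 0.06 (limma adjusted p = 3.50e-07), or 2.53-fold, and the groups lay well apart.

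Cathepsin Z, a cysteine carboxypeptidase, was measured by probe set 10490212. Ctsz was at -0.63, -0.63 and -0.60 in undifferentiated replicates 1 to 3 and at 0.60, 0.60 and 0.64 in differentiated replicates 1 to 3. This was the tightest agreement in the family, with a residual SD of 0.019, against a median of 0.081 over all genes and 0.063 over the members. Its log2 fold change was 1.24 ± 0.05 (limma adjusted p = 2.05e-07), or 2.35-fold.

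Cathepsin L, a broad endopeptidase of the lysosome, rose by less than 2-fold. Ctsl (probe set 10410124) was at -0.36, -0.26 and -0.28 in undifferentiated replicates 1 to 3 and at 0.37, 0.26 and 0.39 in differentiated replicates 1 to 3. Differentiated replicate 2 was the lowest of its group and still lay above every undifferentiated array. The rise came to a log2 fold change of 0.64 ± 0.06 (limma adjusted p = 3.50e-05), or 1.56-fold.

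Cathepsin H, mainly an aminopeptidase, passed the threshold narrowly. Ctsh (probe set 10587733) was at -0.23, -0.05 and -0.03 in undifferentiated replicates 1 to 3 and at 0.03, 0.13 and 0.17 in differentiated replicates 1 to 3. The innermost arrays of the groups almost touched, and undifferentiated replicate 1 lay well below the rest. The log2 fold change was 0.21 ± 0.07 (limma adjusted p = 0.0463), or 1.16-fold. The call was lost without undifferentiated replicate 1 (0.15, limma adjusted p = 0.144), undifferentiated replicate 2 (0.24, limma adjusted p = 0.0632), differentiated replicate 2 (0.20, limma adjusted p = 0.115) or differentiated replicate 3 (0.18, limma adjusted p = 0.149), so that 7 members were then called.

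Ctsf and Ctsc did not pass. Ctsf (probe set 10460468), a papain-family endopeptidase with an unusually long propeptide, was at -0.04, -0.15 and 0.13 in undifferentiated replicates 1 to 3 and at 0.17, -0.0012 and 0.0012 in differentiated replicates 1 to 3. The groups overlapped, and its residual SD of 0.121 was the widest of the family. The log2 fold change was 0.08, with a 95% interval of -0.11 to 0.26 (limma adjusted p = 0.545).

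Cathepsin C, or dipeptidyl peptidase I, activates the granule serine proteases of immune cells. Ctsc (probe set 10554789) was at -0.0075, -0.023 and 0.044 in undifferentiated replicates 1 to 3 and at 0.0075, -0.031 and 0.047 in differentiated replicates 1 to 3. All 6 arrays overlapped within a narrow band. The log2 fold change was 0.0033, with a 95% interval of -0.12 to 0.12 (limma adjusted p = 0.973). The interval leaves out a change of the size seen in Ctsl or above. Whether Ctsc was expressed cannot be read from centred values.

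**Figure D2:**
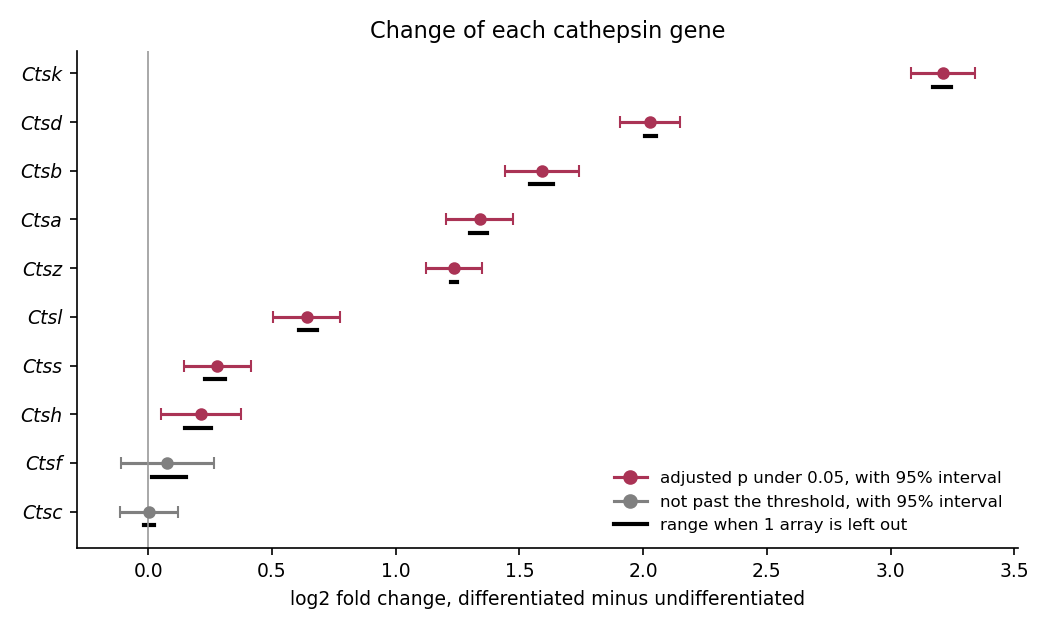
Points are log2 fold changes (differentiated minus undifferentiated, horizontal axis) of the 10 cathepsin genes with 95% intervals from limma, red where the adjusted p was under 0.05, and black bars give the range when 1 array is left out. The intervals of Ctsk, Ctsd and Ctsl each stand apart from all others, and those of Ctsf and Ctsc include 0.

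The order of the changes was read from neighbours in it, by taking the difference of both genes within each array. With 3 arrays per group, the exact two-sided permutation test over 20 splits cannot go below p = 0.1, so no pair could pass. The pairs also come from an order sorted on these same values, and the differences are given as a description only. Ctsk exceeded Ctsd by 1.18 on the log2 scale, from 1.13 to 1.26 over the 9 pairings of a differentiated with an undifferentiated array (exact permutation p = 0.1, 0.18 after Benjamini-Hochberg adjustment over 9 pairs). The within-array differences of the groups likewise did not overlap for Ctsd over Ctsb (0.44), Ctsb over Ctsa (0.25), Ctsz over Ctsl (0.59) and Ctsl over Ctss (0.36), each at the same p. They overlapped for Ctsa and Ctsz (0.10, from -0.02 to 0.22 over the pairings). They also overlapped for Ctss and Ctsh (0.07), Ctsh and Ctsf (0.14), and Ctsf and Ctsc (0.07).

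Of 13 further cathepsin genes listed, 11 were measured by a probe set of their own, and 1 of these was higher, 0 lower and 10 did not pass. Shares over all genes were 16.4% higher and 19.1% lower. The one that rose was Ctso, a papain-family cathepsin, by 0.82 ± 0.07 (1.77-fold, limma adjusted p = 3.00e-05). Ctso was at -0.34, -0.62 and -0.42 in undifferentiated replicates 1 to 3 and at 0.34, 0.39 and 0.36 in differentiated replicates 1 to 3, with no overlap. The list also holds the rodent placental cathepsins, the aspartic Ctse, the granule serine protease Ctsg and the lymphocyte cathepsin Ctsw, and apart from Ctso its members lay between -0.06 and 0.12. Ctsll3, named because its call changed, was also called higher after cyclic loess scaling (0.21, limma adjusted p = 0.0255) and without differentiated replicate 2 (0.18, limma adjusted p = 0.0492). The placental genes Cts3 and Ctsm share probe sets, 4 in all, which ran from -0.04 to -0.03 and did not pass (adjusted p = 0.574 or above in limma over all probe sets). Their close copies make the placental genes uncertain. At an unadjusted p under 0.05, 0 genes of this list were lower in limma, against 4339 of all 19938 genes. The median of the 11 genes was 0.04, against 0.94 for the 10 members. Both lists were chosen with earlier results of these data known, so this contrast is a description only.

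Part of the genes for cathepsin inhibitors rose. Of 18 measured members of this list, 8 were higher, 0 lower and 10 did not pass (all genes: 16.4% higher, 19.1% lower). The list's median was 0.02. The largest rise was Ctla2a (3.18 ± 0.07, 9.09-fold, limma adjusted p = 9.85e-09), which was at -1.53, -1.53 and -1.71 in undifferentiated and at 1.53, 1.66 and 1.59 in differentiated replicates 1 to 3. Its close copy Ctla2b rose too (1.69 ± 0.10), and probe sets of near-identical genes may read both.

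Cst3, or cystatin C, the main secreted inhibitor of cysteine cathepsins, was at -1.07, -1.18 and -1.15 in undifferentiated and at 1.11, 1.07 and 1.09 in differentiated replicates 1 to 3. The arrays of each group lay within a narrow range, and the log2 fold change was 2.23 ± 0.05 (4.68-fold, limma adjusted p = 2.04e-08). Cystatin B, which acts inside the cell, moved less, with Cstb higher by 0.49 ± 0.08 (1.41-fold, limma adjusted p = 0.00110). The 10 members that did not pass lay between -0.10 and 0.02, and 0 inhibitors were lower at an unadjusted p under 0.05 in limma. By that rule, 4339 of all 19938 genes were lower.

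**Figure D3:**
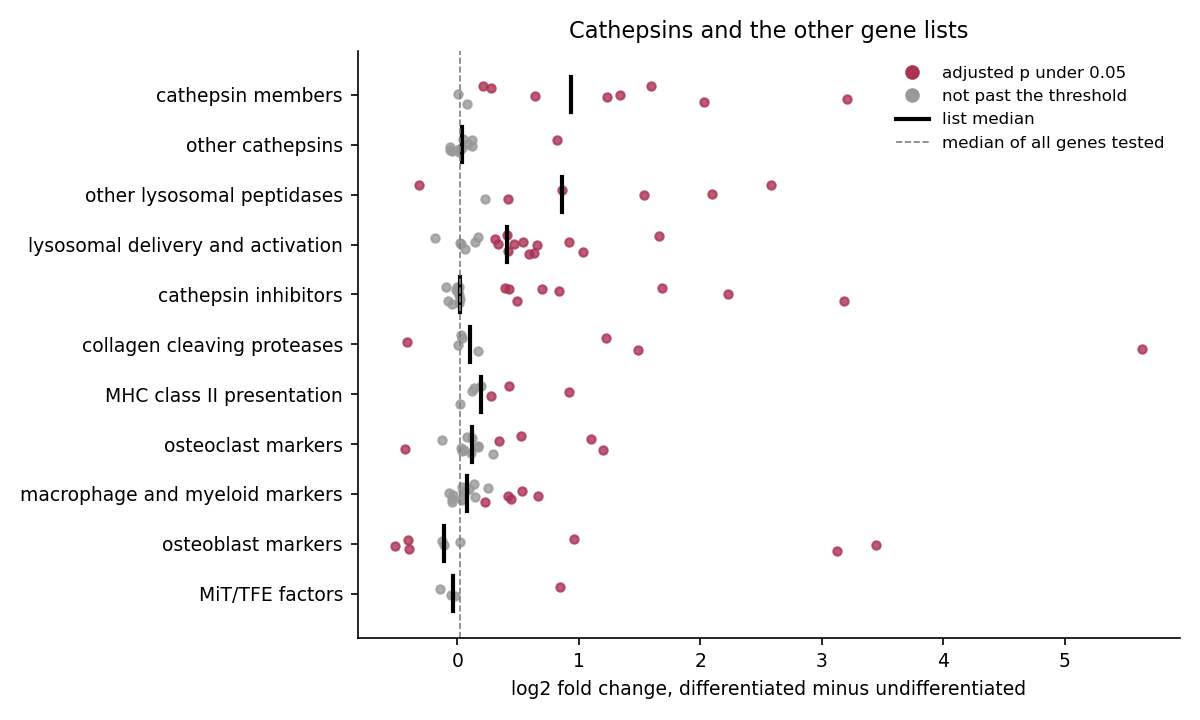
Each point is 1 gene's log2 fold change (differentiated minus undifferentiated, horizontal axis) in the cathepsins and 10 other lists, red where the adjusted p was under 0.05, with a black bar at the list median and a dashed line at the median of all genes. The cathepsins (median 0.94) and the other lysosomal peptidases (0.86) have the highest medians, and inhibitors split into 8 called genes and 10 near 0.

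Peptidases that share the lysosome with the cathepsins mostly rose, 5 of 7 measured being higher, 1 lower and 1 not past the threshold (median 0.86). By the same rule, 16.4% of all genes were higher and 19.1% lower. Dpp7, a dipeptidyl peptidase, rose by 2.58 ± 0.09 (5.97-fold, limma adjusted p = 9.12e-08). The carboxypeptidase Cpq rose by 2.10 ± 0.07 and the tripeptidyl peptidase Tpp1 by 1.53 ± 0.08. Legumain, which cleaves several cathepsins into their chain forms, was measured by Lgmn. It was at -0.32, -0.25 and -0.11 in undifferentiated and at 0.22, 0.11 and 0.25 in differentiated replicates 1 to 3, a rise of 0.42 ± 0.07 (1.34-fold, limma adjusted p = 0.00131). The one fall was the carboxypeptidase Prcp (-0.31 ± 0.06, limma adjusted p = 0.00265), named because it was the only one, after its value was seen. Napsa (0.23 ± 0.09, limma adjusted p = 0.0865), named because its call changed, was called higher without undifferentiated replicate 3 (0.30, limma adjusted p = 0.0270).

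Among 18 measured genes of lysosomal delivery and activation, 12 were higher, 0 lower and 6 did not pass (median 0.41). All genes together had 16.4% higher and 19.1% lower. Lgmn stands in this list too. Neu1, the sialidase that depends on cathepsin A, rose by 1.66 ± 0.10 (3.17-fold, limma adjusted p = 2.31e-06), with undifferentiated values spread from -1.14 to -0.70. Gnptg, a subunit of the enzyme that makes the mannose 6-phosphate tag, rose by 1.04 ± 0.07, and Psap, the precursor of the saposins, by 0.92 ± 0.06. The mannose 6-phosphate receptor Igf2r (0.41 ± 0.06) and Glb1 (0.59 ± 0.06) rose as well, and these were chosen for their roles after the values were seen. Lower at an unadjusted p under 0.05 in limma were 0 of the list, against 4339 of all 19938 genes. The 6 genes that did not pass lay between -0.19 and 0.17. One of the 6, the lysosomal membrane receptor gene Scarb2 (0.17 ± 0.09), was called higher after cyclic loess scaling (0.30, limma adjusted p = 0.0270) and without differentiated replicate 3 (0.27, limma adjusted p = 0.0308), and is named for that reason.

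Of the 4 MiT/TFE factors, Mitf was higher (0.85 ± 0.07, 1.80-fold, limma adjusted p = 2.44e-05) and the other three, Tfeb (-0.02 ± 0.13), Tfec (-0.05 ± 0.05) and Tfe3 (-0.15 ± 0.05), named to complete the family, did not pass. Of all genes, 16.4% were higher and 19.1% lower. Mitf is the mean of 2 probe sets that differed. The lowest-numbered alone was at 1.60, so the other lay far below the mean of 0.85. The rise thus rests mostly on 1 probe set, and both its size and its presence in the other are uncertain. Tfe3 had an unadjusted p under 0.05 and was called lower with array weights (-0.15, limma adjusted p = 0.0459) and without undifferentiated replicate 3 (-0.17, limma adjusted p = 0.0468).

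Other genes that cut collagen, the substrate for which cathepsin K is best known, moved both ways. Of 8 measured, 3 were higher, 1 lower and 4 did not pass (median 0.11), beside 16.4% higher and 19.1% lower of all genes. The rises were Mmp13 (5.64 ± 0.07), the membrane-bound Mmp14 (1.49 ± 0.05) and Mmp2 (1.23 ± 0.06), and the fall was Mmp16 (-0.42 ± 0.09), named after its value was seen.

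Markers of osteoclasts and macrophages, cells in which Ctsk and Ctss are abundant, are given beside these results. Of 15 osteoclast markers, 4 were higher, 1 lower and 10 did not pass, with a median of 0.13 (all genes: 16.4% higher, 19.1% lower). Their mean centred value lay between -0.15 and -0.08 in the undifferentiated arrays and between 0.10 and 0.14 in the differentiated ones. The rises, which weigh on this mean, were led by Ostm1 (1.20 ± 0.06) and Clcn7 (1.10 ± 0.06), then Itgb3 (0.53 ± 0.10). Ostm1 and Clcn7 form a chloride transporter pair that lysosomes of many cells use.

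The osteoclast phosphatase gene Acp5 was at -0.09, -0.11 and 0.07 in undifferentiated and at 0.11, -0.07 and 0.09 in differentiated replicates 1 to 3. The groups overlapped, and its log2 fold change was 0.08 ± 0.07 (limma adjusted p = 0.433). Nfatc1, the master regulator of osteoclast formation, fell by 0.43 on the log2 scale (SE 0.07, limma adjusted p = 0.00121), with undifferentiated values of 0.22, 0.28 and 0.11 and differentiated values of -0.27, -0.29 and -0.11. The number of osteoclast markers called higher ran from 3 to 5 over the alternatives. Siglec15 was called higher with array weights (0.33, limma adjusted p = 0.0250) and without undifferentiated replicate 3 (0.43, limma adjusted p = 0.00109), and Ocstamp with a replicate block (0.17, limma adjusted p = 0.0470). Atp6v0d2 lost its call without undifferentiated replicate 2 (0.31, limma adjusted p = 0.0523), and Tcirg1, a proton pump subunit, was called lower after cyclic loess scaling (-0.17, limma adjusted p = 0.0372). These 4 genes are named because their calls changed.

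Of 18 macrophage and myeloid markers, 5 were higher, 0 lower and 13 did not pass (median 0.08). Over all genes the shares were 16.4% higher and 19.1% lower. The mean centred value of this list lay between -0.09 and -0.04 in the undifferentiated arrays and between 0.06 and 0.13 in the differentiated ones. The largest rises were Cd53 (0.66 ± 0.08), Fcer1g (0.53 ± 0.07) and Cd68 (0.44 ± 0.10), of which Cd68 is itself a lysosomal protein. The number called higher ran from 4 to 6 over the alternatives. Laptm5 (0.22 ± 0.07, limma adjusted p = 0.0385) lost its call with a replicate block (limma adjusted p = 0.0529) and without undifferentiated replicate 1 or any 1 differentiated array (0.0574 to 0.115). Tyrobp (0.25 ± 0.09, limma adjusted p = 0.0706) gained one in 5 settings, at limma adjusted p = 0.0139 to 0.0492. Both are named because their calls changed. The receptor Csf1r was at 0.07 ± 0.09 (limma adjusted p = 0.616) and the pan-leukocyte Ptprc at 0.10 ± 0.06 (limma adjusted p = 0.243). Of these markers and of the MHC class II genes, 0 were lower at an unadjusted p under 0.05 in limma. By that rule, 2 osteoclast markers, 1 other lysosomal peptidase, 1 collagen cleaving protease, 1 MiT/TFE factor and 3 osteoblast markers were lower. Over all 19938 genes, 4339 were. Levels of these markers cannot be read from centred values, and their part in the cathepsin rises was not tested.

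**Figure D4:**
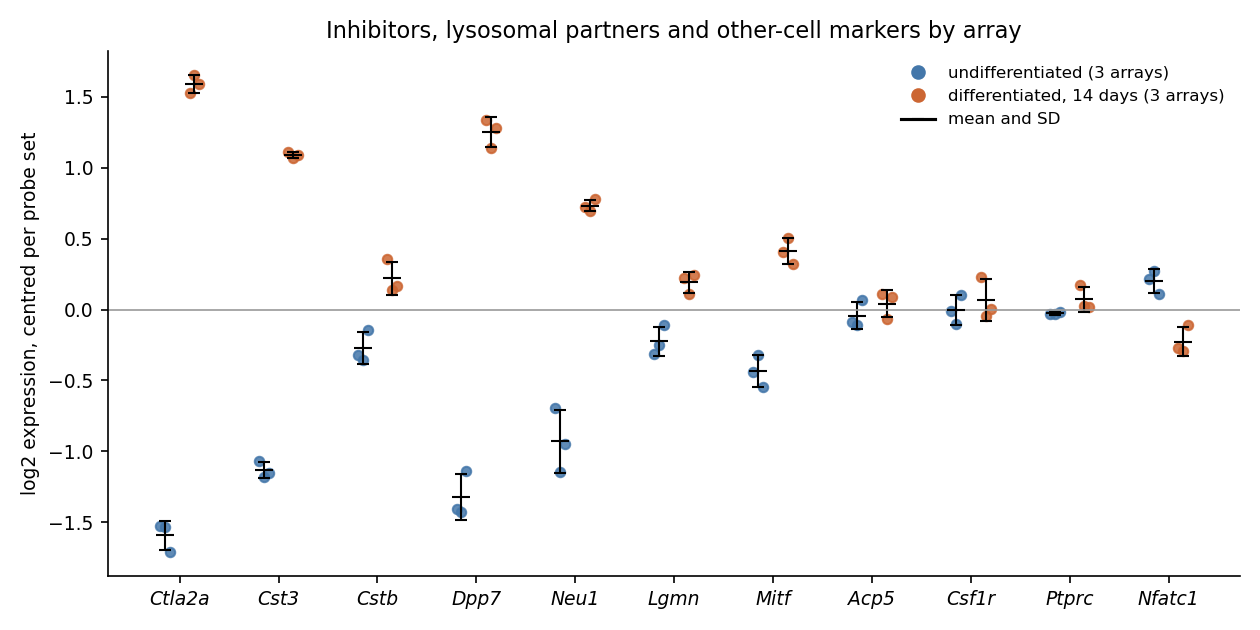
Each point is 1 array's log2 expression, centred per probe set (vertical axis; Mitf is the mean of 2 probe sets), with black bars for the mean and SD of 3 arrays per group. The inhibitors Ctla2a and Cst3 and the peptidase Dpp7 separate widely, Acp5 and Csf1r overlap between groups, and Nfatc1 lies lower in differentiated arrays.

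Of 7 measured genes of MHC class II presentation, the pathway Ctss serves in immune cells, 3 were higher, 0 lower and 4 did not pass (median 0.19). Higher and lower shares over all genes were 16.4% and 19.1%. The lysosomal thiol reductase Ifi30 (0.92 ± 0.07), H2-DMa (0.43 ± 0.09) and the transactivator Ciita (0.28 ± 0.07) rose. Named because their calls changed, H2-Ab1 was called higher with a replicate block (0.19, limma adjusted p = 0.0441) and H2-Eb1 without undifferentiated replicate 3 (0.27, limma adjusted p = 0.0205). The invariant chain gene Cd74, chosen after its value was seen, was at 0.03 ± 0.07 (limma adjusted p = 0.843).

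Markers of the labelled lineage moved both ways. Of 9 measured osteoblast markers, 3 were higher, 3 lower and 3 did not pass (median -0.11), beside 16.4% higher and 19.1% lower of all genes. Dmp1 (3.44 ± 0.20), Ibsp (3.12 ± 0.09) and Alpl (0.96 ± 0.08) rose. The falls, named after their values were seen, were the transcription factors Dlx5 (-0.51 ± 0.06) and Sp7 (-0.40 ± 0.07) and the collagen gene Col1a1 (-0.40 ± 0.07). Sp7 lost its call after cyclic loess scaling (-0.21, limma adjusted p = 0.106).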

How the data were processed

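RNA from 3 undifferentiated and 3 differentiated MC3T3-E1 samples was measured on 1 array each. Groups come from the sample titles and conditions from the labels' protocols, which give a mean RNA integrity number of 9.9. The deposited log2 values came from RMA, which corrects background, quantile-normalizes and summarises probes, according to the submitters' processing notes (version not given). A further centring, seen only in the values, puts the median of all 28856 probe sets at 0 over the arrays, within 1e-06. The log base is taken from the method, and signal over background is unknown. No filter on dim genes, batch or scan date could therefore be used, and precision is limited by the array number.

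The platform annotation gives 21789 probe sets 1 gene, 1621 several and 5446 none. Only the first kind was used, with 21698 matched by gene ID to RefSeq genes (GRCm38.p6), averaged per gene (999 genes with several). Differences were fitted with limma (lmFit, eBayes, two-sided, no replicate block). Errors are limma's standard errors, and fold changes are differentiated over undifferentiated. A limma fit of the same form was tried on simulated data, and the other steps were not.

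The members and lists were chosen with earlier results of these data known. Named genes are all members, up to 3 of the largest called changes per list, 8 set genes (Acp5, Csf1r, Ptprc, Nfatc1, Lgmn, Cst3, Cstb and Mitf), and the 5 genes closest to the member with the largest change. Others are marked in the text. Listed genes that were not tested are not analysed here. Alternatives tried were a replicate block, 3 scalings, 3 treatments of probe sets, array weights, robust eBayes and each array left out. R 4.3.3, limma 3.58.1, data.table (version 1.17.8), Python 3.11.15 and matplotlib 3.10.9 were used.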

Additional observations from a re-analysis of the deposited data

How the results depend on the processing

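Fold changes of Ctsk, Ctsd, Ctsb, Ctsa, Ctsz, Ctsl and Ctss kept their direction and their call under all 15 alternatives. Ctsh lost its call when every probe set was tested on its own (0.21, limma adjusted p = 0.0575), and its value ran from 0.15 to 0.25 with 1 array left out. The value of Ctsc, which was never called, turned to -0.0021 after quantile scaling and ran from -0.016 to 0.023 with 1 array left out. Ctsf was not called under any alternative. Cathepsins called higher numbered 7 to 8 and lower 0 throughout. In fits on genes, 2675 to 3656 of all genes were called higher and 3297 to 3923 lower. With every probe set tested on its own, 3907 probe sets were higher and 4952 lower. With the replicate number as a block, 8 cathepsins, 3328 genes higher and 3834 lower were called. The numbers were not taken to pair the arrays, since same-numbered arrays' deviations from their group means correlated at -0.0013, 0.069 and 0.16. Without a level over background, an unexpressed gene and an unchanged one cannot be told apart.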
